A study of Mus musculus with 7 samples.

Results

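Carbonic anhydrases are the family described here: 10 mouse genes, Car1, Car2, Car3, Car4, Car5b, Car8, Car9, Car12, Car13 and Car14, followed in eosinophils sorted from mouse lung. A member was any probe set that carried one of these symbols in the deposited annotation, which gave 9 genes of 18187 with 1 probe set each; Car8 was not analysed here. The family was selected on its measured OVA and saline levels, Car4 having one of the largest differences between these groups, so the differences between OVA and saline within the listed family are descriptions; where limma's calls of its members are counted below, they support nothing. Expression was measured on gene arrays in 3 libraries from OVA challenged lungs, OVA being the egg white allergen ovalbumin, and in 4 libraries from saline challenged lungs. The mice were all of the inbred BALB/c strain, and the cells were described as sorted to high purity. The labels used here do not give the animals' age, the schedule of challenge, or whether a library came from 1 mouse or a pool, so the spread between libraries may be partly technical.

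Carbonic anhydrases are zinc enzymes that interconvert carbon dioxide and water with bicarbonate and a proton. The mammalian isoforms are sorted by place: Car1, Car2, Car3 and Car13 act in the cytosol, Car5b in mitochondria, and Car4, Car9, Car12 and Car14 at the cell surface with the active site facing outward. Car4 is held in the membrane by a glycosylphosphatidylinositol (GPI) lipid anchor, while Car9, Car12 and Car14 span it. In the lung, Car4 is best known from capillary endothelium, where it speeds the release of carbon dioxide.

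Promoter sequences of 5 of the 9 measured genes could be read from RefSeq, build GRCm38.p6. The core of the element bound by hypoxia-inducible factor (HIF), ACGTG, was searched on both strands over 250 bases before and 50 after each start. It was present in 3 of these 5 promoters, those of Car4, Car9 and Car14, and absent as letters from the windows of Car12 and Car5b. Of 32851 promoters of the same length, 19.6% hold it. The first 260 bases of those 3 windows, which end 10 bases after the start, are shown because Car9 is a textbook HIF target while Car4 is the member with the large difference, and capitals mark the core, which lies on the opposite strand in each. Car4 is from chr11:84957504-84957763 on the plus strand, Car9 from chr4:43506776-43507035 on the plus strand and Car14 from chr3:95904676-95904935 on the minus strand.
Car4: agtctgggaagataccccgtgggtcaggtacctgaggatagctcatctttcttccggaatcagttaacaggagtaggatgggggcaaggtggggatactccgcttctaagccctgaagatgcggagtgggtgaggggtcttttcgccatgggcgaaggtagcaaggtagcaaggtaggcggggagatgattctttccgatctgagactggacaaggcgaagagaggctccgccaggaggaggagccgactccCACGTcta
Car9: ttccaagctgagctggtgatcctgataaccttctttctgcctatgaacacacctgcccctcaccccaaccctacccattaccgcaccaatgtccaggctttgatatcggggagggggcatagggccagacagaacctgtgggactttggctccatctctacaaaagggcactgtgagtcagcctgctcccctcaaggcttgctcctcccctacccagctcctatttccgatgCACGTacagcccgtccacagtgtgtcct
Car14: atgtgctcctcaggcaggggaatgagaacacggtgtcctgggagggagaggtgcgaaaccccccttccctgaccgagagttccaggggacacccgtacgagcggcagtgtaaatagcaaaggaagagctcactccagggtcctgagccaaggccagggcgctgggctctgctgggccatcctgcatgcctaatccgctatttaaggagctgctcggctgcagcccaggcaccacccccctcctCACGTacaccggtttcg
The spaced palindrome TTCNNNGAA, of the kind bound by STAT factors, was found in 0 of the 5 windows, against 8.3% of all promoters. These matches are letters in a window and were set against no binding data.

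Values are log2 levels after robust multi-array averaging (RMA), on which a step of 1 is a doubling, and differences are OVA minus saline. Background was read from 5222 negative control probe sets, whose median per library lay between 5.86 and 6.17 and whose 95th percentile lay between 9.24 and 9.46. The control median averaged 6.09 ± 0.07 in OVA (SD, n = 3) and 5.91 ± 0.04 in saline (SD, n = 4), a difference of 0.18 that is of the size of several family differences given below. The median difference of all genes was -0.07, and the 5th and 95th percentiles of the differences were -0.37 and 0.67. Of the eosinophil genes, Ccr3, the eotaxin receptor, averaged 11.84 ± 0.12 in OVA and 11.97 ± 0.06 in saline (SD, n = 3 and 4). Il5ra, the interleukin-5 receptor chain, averaged 8.73 ± 0.22 in OVA and 9.09 ± 0.41 in saline (SD, n = 3 and 4). Both Il5ra means lay under the control 95th percentile. Of 12 eosinophil markers, 7 exceeded it in all OVA libraries and 7 in all saline libraries. A level under it is therefore not read as absence of expression.

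Car4 was the bright member, and it was so only in the libraries from OVA lungs. Its level was 11.91, 11.85 and 11.55 in the 3 OVA libraries, against 6.36, 6.21, 7.08 and 6.01 in the 4 saline libraries. The groups did not overlap, with 4.47 log2 units between the lowest OVA and the highest saline library. In saline, Car4 lay close to the median of the negative controls, and in OVA it lay above their 95th percentile in 3 of 3 libraries. The means were 11.77 ± 0.19 in OVA and 6.42 ± 0.47 in saline (SD, n = 3 and 4). The difference was 5.36 (SE 0.23), or 40.9-fold. Because the saline level was near background, this fold may understate the true ratio. Among 18187 genes, 1 had a larger difference.

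Saline replicate 3 held the highest Car4 level of its group, 7.08, and without that library the difference was 5.58. Saline replicate 3 was the highest saline library for 6 of 18 alveolar macrophage markers, 5 of 13 epithelial, 3 of 7 erythroid and 2 of 15 endothelial markers. It was also highest for 5 of 12 eosinophil markers. By number of markers, other saline libraries did as much: replicate 1 was highest for 6 macrophage markers. Replicate 2 was highest for 7 epithelial, 3 erythroid and 6 endothelial markers. Replicate 4, the lowest saline library for Car4, was highest for 1 macrophage, 3 eosinophil and 0 epithelial, erythroid or endothelial markers. These counts leave out the size of each lead. Markers highest in replicate 3 are given against the next saline library. They included the macrophage mannose receptor Mrc1 (6.75 against 5.64) and the proton pump subunit Atp6v0d2 (5.85 against 4.83). Also among them were the surfactant gene Sftpc (9.91 against 8.10) and the epithelial marker Scgb1a1 (11.20 against 9.91). The alpha globin Hba-a1 (12.42 against 12.07) was another. The macrophage markers Itgax (8.54), Pparg (6.21) and Marco (5.95) were not highest in replicate 3. The part of other cells in the Car4 level of that library was not tested.

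**Figure D1:**
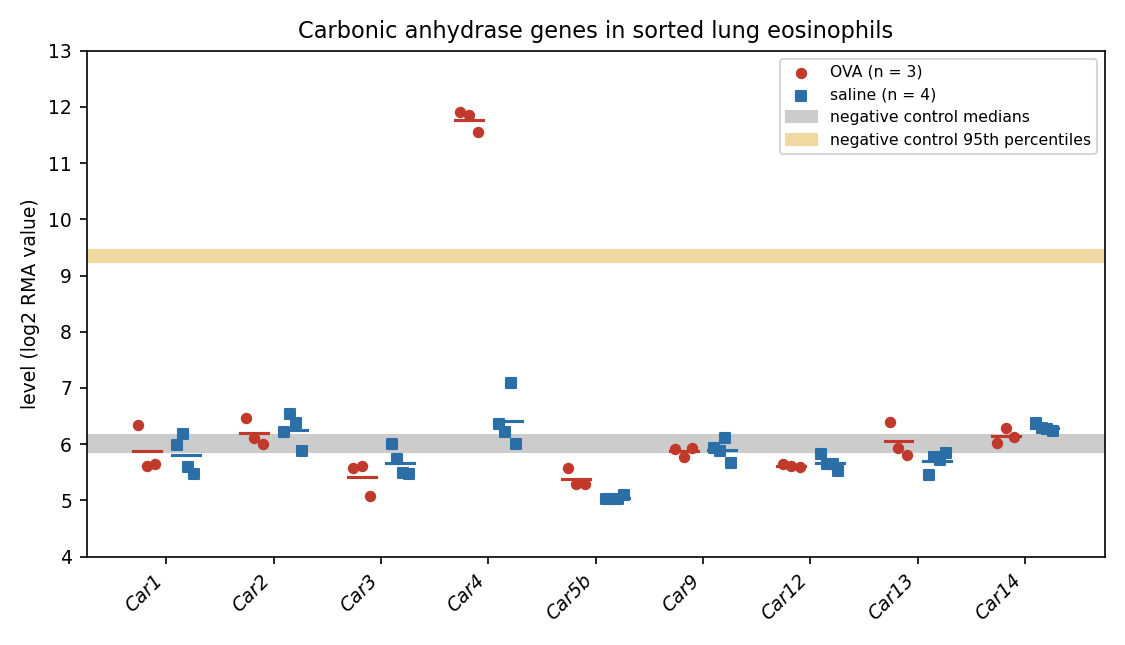
Level (log2 RMA value, vertical axis) of the 9 measured carbonic anhydrase genes in each library, OVA as circles (n = 3) and saline as squares (n = 4), with short lines at the group means. Grey and tan bands span the medians and the 95th percentiles of the negative control probe sets over the 7 libraries; Car4 in OVA, at 11.55 to 11.91, is the only member above the tan band.

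The cytosolic enzymes showed overlapping groups. Car2, the fast cytosolic form of red cells and many epithelia, was 6.46, 6.11 and 6.01 in OVA, against 6.22, 6.54, 6.38 and 5.88 in saline. The difference was -0.06 (SE 0.17), smaller than the spread between libraries of a group. Car1, abundant in red cells, was 6.35, 5.62 and 5.64 in OVA, against 5.99, 6.18, 5.60 and 5.47 in saline. Here OVA replicate 1 was high and the other two OVA libraries lay inside the saline range, which gave a difference of 0.06 (SE 0.22). Car13, a widely expressed cytosolic form, was 6.40, 5.94 and 5.81 in OVA, against 5.45, 5.77, 5.71 and 5.84 in saline. Its OVA libraries were mostly the higher ones, with a difference of 0.36 (SE 0.16), and the lowest OVA library fell just under the highest saline one. Car3, the slow form known from muscle and fat, was 5.57, 5.61 and 5.08 in OVA, against 6.00, 5.74, 5.48 and 5.47 in saline, a difference of -0.25 (SE 0.17) between overlapping groups.

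Car13, Car1, Car3 and Car2 are 4 consecutive protein-coding genes on chromosome 3 in the RefSeq annotation, with 0 others between them. Their differences ran from -0.25 to 0.36, so the cluster held values of both signs. Under the alternative settings Car1 ranged from -0.21 to 0.34 and Car2 from -0.20 to 0.06, so their signs are not fixed, while Car13 stayed positive (0.18 to 0.48) and Car3 negative (-0.45 to -0.06).

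Globin transcripts were bright in every library, while 3 of 7 measured erythroid markers lay above the negative control median in all libraries. Hba-a1, an alpha globin, was 10.13, 11.31 and 11.39 in OVA, against 11.71, 11.55, 12.42 and 12.07 in saline, and Hbb-bt, a beta globin, was 11.37, 12.7 and 12.73 in OVA, against 12.74, 12.88, 13.37 and 13.15 in saline. Globins were thus lower in each OVA library than in any saline library for both genes, and neither passed the test (limma adjusted p = 0.105 for Hba-a1 and 0.202 for Hbb-bt). Of 7 measured erythroid markers 0 were called in either direction by limma, with 0 higher and 4 lower at an unadjusted p under 0.05, and their mean level ran from 6.92 to 7.39 in OVA and from 7.58 to 7.79 in saline. Car1 and Car2 stayed between 5.47 and 6.54 in these same libraries, near the negative control median; the part of red cell RNA in their levels was not tested.

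Car5b, the mitochondrial form, was the other member whose groups did not overlap. It was 5.57, 5.29 and 5.29 in OVA, against 5.03, 5.03, 5.03 and 5.10 in saline. The OVA libraries were all higher, by 0.34 on average (SE 0.11), but every value of both groups lay below the negative control median of its library. A difference between values at background has no clear size. Of 14 alternatives in which it was tested, Car5b passed limma's threshold in 1, when the arrays were quantile normalised again, where the difference was 0.45.

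Of the surface forms other than Car4, none separated the groups. Car9, the hypoxia-inducible transmembrane form, was 5.92, 5.77 and 5.93 in OVA, against 5.94, 5.87, 6.11 and 5.67 in saline, a difference of -0.02 (SE 0.12). Car12, also transmembrane and known from epithelia, was 5.64, 5.61 and 5.59 in OVA, against 5.83, 5.64, 5.64 and 5.52 in saline, a difference of -0.04 (SE 0.11). In both genes the OVA libraries sat within the saline range, and the sign changed between settings (-0.13 to 0.07 for Car9, -0.12 to 0.06 for Car12). Car14, a transmembrane form, was 6.02, 6.29 and 6.12 in OVA, against 6.37, 6.28, 6.27 and 6.24 in saline, a difference of -0.15 (SE 0.10) in which the highest OVA library exceeded the 3 lowest saline ones. Car4, Car9 and Car14, whose windows printed above share the ACGTG core, differed by 5.36, -0.02 and -0.15. The core began at position 3, after the start, in Car4, and before it in Car9 (-18) and Car14 (-7). Whether the core bears on these differences was not tested.

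Across the 9 measured members, 4 had a higher and 5 a lower mean in OVA, with a median difference of -0.02. By limma at an adjusted p under 0.05, 1 member, Car4, was called, where 6.44% of all genes were called, 5.28% as higher and 1.17% as lower; a difference of 1 or more was likewise seen in 1 member, and in 2.23% of all genes. Since Car4 was the reason for choosing the family, nothing is read from these counts. Groups did not overlap for 2 members, Car4 and Car5b, both above saline, a pattern found in 11% of all genes, with the opposite pattern in 8.61%. Leaving Car4 aside, the 8 members held values from 5.03 to 6.54 and differences from -0.25 to 0.36, of which 5 were smaller than the pooled SD of the gene. None of these 8 exceeded the 95th percentile of the negative controls in any library. A mean above the overall negative control median of 5.98 was reached by 3 of the 9, Car2, Car4 and Car14.

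**Figure D2:**
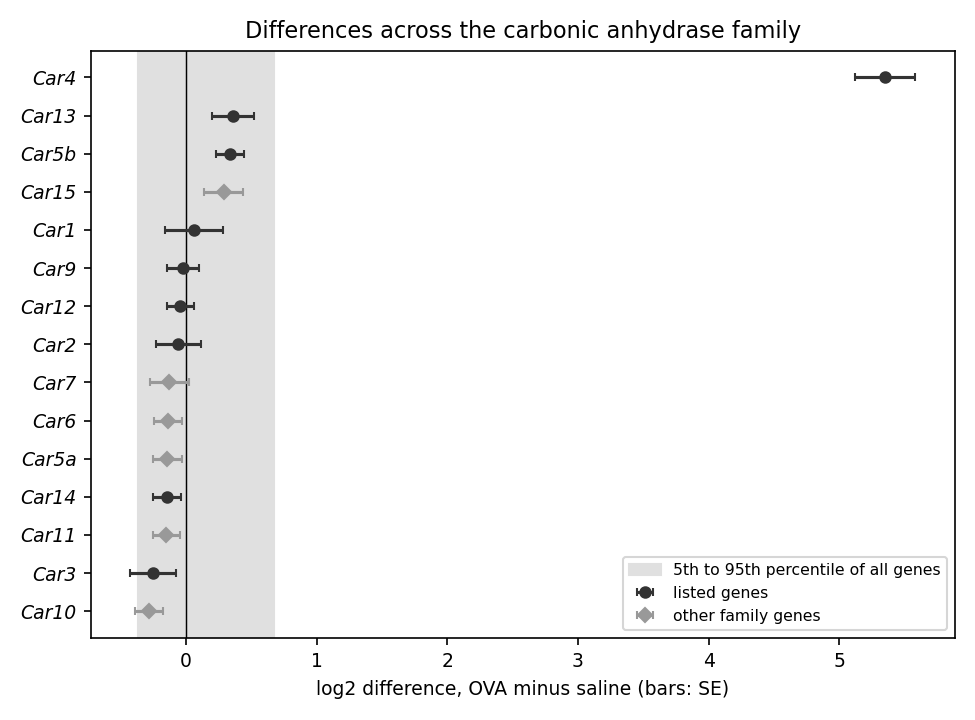
Log2 difference between OVA (n = 3) and saline (n = 4) for 15 carbonic anhydrase genes, with bars of 1 SE; circles are listed genes and diamonds the other family genes on the array. The grey band is the range from the 5th to the 95th percentile of all genes (-0.37 to 0.67), and Car4, at 5.36, is the only family gene outside it.

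None of the 6 further family genes on the array exceeded the control 95th percentile in any library. Car11 and Car15 lay above the negative control median in every library. Car11 was 7.09, 6.99 and 6.97 in OVA, against 7.18, 7.13, 7.33 and 7.03 in saline. Car15, a second GPI-anchored form, was 7.12, 6.80 and 6.90 in OVA, against 6.90, 6.80, 6.40 and 6.51 in saline, a difference of 0.29 (SE 0.15, limma adjusted p = 0.295). Car10, a family protein without the catalytic zinc site, was 5.42, 5.20 and 5.43 in OVA, against 5.72, 5.68, 5.59 and 5.54 in saline, so that each OVA library was below each saline library (-0.28, SE 0.11, limma adjusted p = 0.17). The mitochondrial Car5a, the salivary Car6, the cytosolic Car7 and Car11, which also lacks the catalytic zinc site, differed by -0.14, -0.14, -0.13 and -0.15. Of these 6 genes 0 were called by limma, and 1 had an unadjusted p under 0.05; with array weights 1 was called.

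The genes that work beside carbonic anhydrases were followed in 8 lists of 112 genes, of which 108 were measured, counting the 6 just described. Over all of them 8 were higher and 0 lower by limma (18 higher and 5 lower at an unadjusted p under 0.05), or 7.41% called, where 6.44% of all genes were called. Their median difference was -0.05, against -0.07 over all genes. Over all genes 960 were higher and 212 lower, so 81.9% of calls were higher; with the arrays quantile normalised again that share was 64.6%. The count of 8 was 5 without OVA replicate 2, 13 without saline replicate 4 and 17 without saline replicates 3 and 4 together.

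Bicarbonate carriers and acid extruders, which move the products of the reaction across membranes, contributed 2 called genes. Slc4a7, an electroneutral sodium bicarbonate cotransporter, was 7.64, 7.91 and 7.85 in OVA, against 7.20, 7.04, 7.24 and 7.06 in saline, and rose by 0.67 (SE 0.11, limma adjusted p = 0.00791). It was the only called gene of 15 measured bicarbonate transporters, whose median was -0.12, and it missed the threshold without OVA replicate 2 (adjusted p = 0.054). Among 17 acid extruders, which include sodium-proton exchangers, proton pumps and lactate carriers, 1 rose and 0 fell (2 and 2 at an unadjusted p under 0.05), with a median of -0.06. Bsg, the chaperone of the monocarboxylate carriers that export lactate with a proton, was 9.92, 9.96 and 9.86 in OVA, against 9.25, 9.16, 9.08 and 9.35 in saline (0.70, SE 0.10, limma adjusted p = 0.0043).

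Channels and sensors were not called. Of 13 measured channels for water, carbon dioxide or ammonia 0 were called by limma (0 higher and 2 lower at an unadjusted p under 0.05), with a median of -0.18. Aqp9, a channel for water and small solutes, was 9.86, 9.84 and 9.91 in OVA, against 10.52, 9.86, 10.23 and 10.37 in saline (-0.38, SE 0.15, limma adjusted p = 0.2), and it was called lower without saline replicate 2 (adjusted p = 0.0343), after quantile normalization (0.0493) and with array weights (0.0296). Aqp11, an intracellular channel, averaged 5.52 ± 0.12 in OVA and 5.88 ± 0.50 in saline (SD, n = 3 and 4), with a limma adjusted p of 0.397. Its difference of -0.36 was -0.18 without saline replicate 1 and -0.58 without saline replicate 4, and it was called lower without saline replicates 3 and 4 together (-0.71, adjusted p = 0.0105). Of 9 proton sensors 0 were called, and 0 had an unadjusted p under 0.05; the largest differences were those of the proton-sensing receptor Gpr4 (0.26, limma adjusted p = 0.299) and the cation channel Trpv1 (-0.22, limma adjusted p = 0.334).

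Enzymes that consume bicarbonate or respond to it, the carboxylases and soluble adenylyl cyclase, gave 1 called gene of 12, with a median of -0.06. Acaca, the acetyl-CoA carboxylase that commits carbon to fatty acid synthesis, was 7.01, 7.15 and 7.45 in OVA, against 6.70, 6.49, 6.68 and 6.71 in saline (0.56, SE 0.13, limma adjusted p = 0.0323). Its 0.56 is for the brightest probe set of the gene; over the mean of its probe sets the difference was 0.23 and the adjusted p 0.321. Acaca also missed the threshold without OVA replicate 2 or 3 or saline replicate 1, 2 or 3 (adjusted p from 0.0585 to 0.139).

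In the HIF pathway, which controls Car9 in hypoxic cells, 2 of 10 genes rose and 0 fell. That was 20% of the list, where 6.44% of all genes were called. Of genes above the negative control median, tested alone, 9.6% were called. At an unadjusted p under 0.05, 4 were higher, and the list median was 0.19. Both called genes encode prolyl hydroxylases that mark HIF for destruction and are themselves HIF targets. Egln3 was 10.94, 10.6 and 10.36 in OVA, against 9.17, 8.39, 7.62 and 7.83 in saline (2.38, SE 0.33, limma adjusted p = 0.00304). Egln1 was 8.92, 8.98 and 8.78 in OVA, against 7.76, 7.35, 7.45 and 7.92 in saline (1.27, SE 0.15, limma adjusted p = 0.00137). The groups did not overlap for either gene, while Car9 in the same libraries stayed between 5.67 and 6.11.

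The machinery that builds and attaches GPI anchors, the kind of anchor Car4 carries, had 3 of 26 genes higher and 0 lower. The called share was 11.5%, against 6.44% of all genes. All 26 lay above the negative control median in every library, and of genes above it, tested alone, 9.6% were called. At an unadjusted p under 0.05, 8 were higher, and the list median was 0.17. Piga, the catalytic subunit of the first step of anchor synthesis, was 8.37, 8.5 and 8.37 in OVA, against 7.12, 6.88, 6.4 and 6.89 in saline (1.59, SE 0.16, limma adjusted p = 0.000586). Gpaa1, a subunit of the transamidase that joins the anchor to the protein, averaged 8.13 ± 0.14 in OVA and 7.34 ± 0.13 in saline (0.79, SE 0.12, n = 3 and 4, limma adjusted p = 0.00433). Pigq, a partner of Piga in the same complex, averaged 7.84 ± 0.20 in OVA and 7.29 ± 0.10 in saline (0.55, SE 0.12, limma adjusted p = 0.0266). Pigq missed the threshold without OVA replicate 2 or 3 or saline replicate 3 (adjusted p of 0.119, 0.13 and 0.0591).

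**Figure D3:**
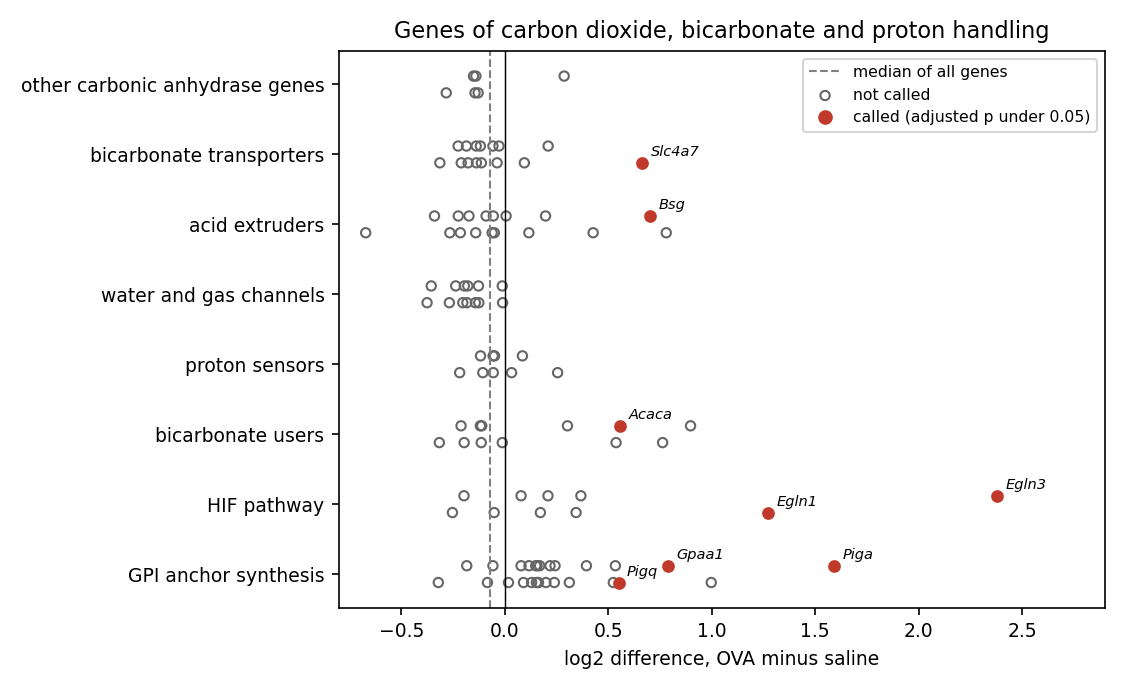
Log2 difference between OVA (n = 3) and saline (n = 4) for each measured gene of 8 lists, where filled named points passed limma's threshold and open points did not. The dashed line is the median of all genes (-0.07); the 8 named genes are all on the right, from 0.55 to 2.38.

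Because Car4 also marks alveolar macrophages and lung capillaries, markers of other cells were read in the same libraries. Of 15 measured endothelial markers 0 were called by limma (0 higher and 2 lower at an unadjusted p under 0.05), and their mean level ran from 5.99 to 6.25 in OVA and from 6.14 to 6.38 in saline. Ednrb, the endothelin receptor of Car4-bearing capillary cells, was 5.07, 4.92 and 4.78 in OVA, against 5.06, 5.10, 5.22 and 5.17 in saline. Both groups were below the negative control median for Ednrb, and no endothelial marker exceeded the control 95th percentile in all libraries of either group.

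Of 18 alveolar macrophage markers 7 were higher and 0 lower (9 and 1 at an unadjusted p under 0.05). That was 38.9% called, where 6.44% of all genes were called. The mean level of the list was 7.35 to 7.81 in OVA and 6.54 to 6.84 in saline. The called ones included Chil3, a chitinase-like secreted protein (12.9, 11.98 and 12.52 in OVA, against 5.76, 6.16, 6.64 and 6.49 in saline), the integrin chain Itgax (2.07), Atp6v0d2 (2.28), Mrc1 (2.07) and the lipid-sensing nuclear receptor Pparg (1.54), with limma adjusted p from 2.38e-06 to 0.0119. Mrc1 missed the threshold without OVA replicate 1 or 3, or without saline replicates 1 and 2 together (adjusted p of 0.0516, 0.0699 and 0.0608).

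Of the 11 markers of the same cell that were not called, the 5 given first were picked individually and do not stand for the list. These 5 overlapped between the groups, and most lay near background. The scavenger receptor Marco was 6.11, 5.94 and 5.69 in OVA, against 5.96, 6.37, 5.95 and 6.13 in saline, and the fatty acid carrier Fabp4 was 5.92, 5.29 and 5.81 in OVA, against 5.30, 5.17, 5.36 and 5.17 in saline. The lipid droplet protein Cidec and the receptor kinase Mertk differed by -0.30 and 0.07. The keratin Krt79 lay above the negative control median, at 7.08, 6.76 and 6.84 in OVA, against 6.96, 7.22, 6.85 and 6.98 in saline. None of these 5 passed the test, although Fabp4 was higher by 0.42 (limma unadjusted p = 0.0214, adjusted p = 0.156). Fabp1, also on the list, was lower in each OVA library than in any saline library. It was 4.98, 4.82 and 4.45 in OVA, against 6.24, 5.21, 5.39 and 5.01 in saline (limma adjusted p = 0.169). The share of macrophage RNA in the Car4 level was not tested, and in sorted bulk cells fewer cells of a type and less RNA per cell cannot be told apart.

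**Figure D4:**
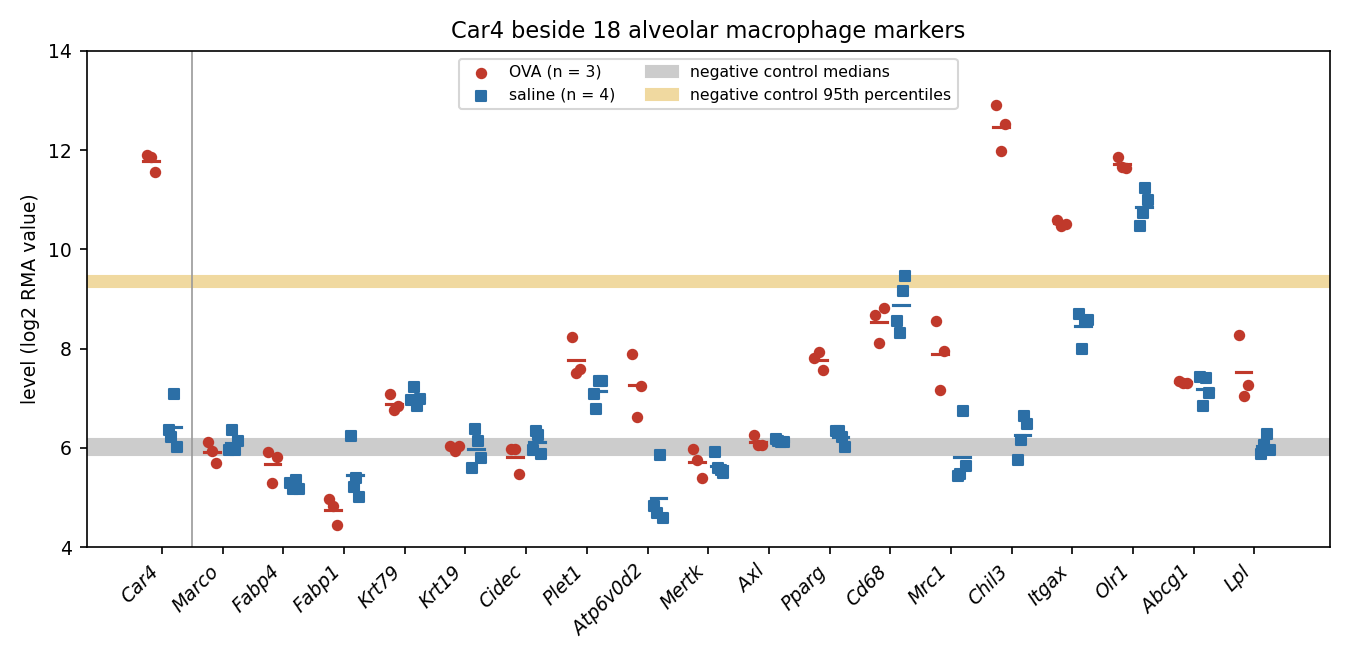
Level (log2 RMA value) of Car4 and, right of the vertical line, of 18 alveolar macrophage markers in OVA (circles, n = 3) and saline (squares, n = 4) libraries, with group means as short lines and the negative control bands. Chil3 separates the groups as Car4 does, whereas Marco, Fabp4, Cidec, Mertk and Axl lie near or below the grey band in both groups.

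Markers of other lung and blood cells were read too. Called shares were 15.4% of the epithelial, 25% of the neutrophil and 41.7% of the eosinophil markers, against 6.44% of all genes. Of 13 epithelial markers 2 were higher and 0 lower: Sftpc, a surfactant protein, was 10.4, 11.39 and 10.22 in OVA, against 7.59, 6.98, 9.91 and 8.1 in saline (limma adjusted p = 0.0364), and Sftpa1 rose by 0.52 (limma adjusted p = 0.0266). Both missed the threshold without any of OVA replicates 1, 2 and 3, and also without saline replicate 1; Sftpc did so without saline replicate 2 or 4 as well (adjusted p of 0.059 and 0.0502). Of 8 neutrophil markers 2 were higher and 0 lower, the granule genes Ngp (1.34, limma adjusted p = 0.00242) and Ltf (0.86, limma adjusted p = 0.0378). Ltf missed the threshold without OVA replicate 2 or 3 or saline replicate 1 or 3 (adjusted p from 0.0673 to 0.187). Of 12 eosinophil markers 4 were higher, Epx (2.69), Prg2 (1.19), Cebpe (0.98) and Siglecf (0.83), and 1, Hdc, was lower (-1.07), with limma adjusted p from 6.73e-05 to 0.00652.

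The genes whose profile over the 7 libraries was most like that of Car4 were found by Pearson's r across all genes. The 10 nearest had r of 0.992 to 0.998, as a description over 7 libraries that fall into 2 separate groups, so that any gene with a clean group difference scores high; 632 other genes, or 3.48%, had r above 0.9. The nearest was the membrane metalloproteinase Adam19, at 10.98, 11.01 and 10.83 in OVA, against 8.86, 8.54, 8.95 and 8.48 in saline. The transcription factor Egr2 was 11.86, 11.85 and 11.62 in OVA, against 8.54, 8.57, 9.1 and 8.84 in saline. Both shared with Car4 a lowest OVA value in replicate 3 and a highest saline value in replicate 3. Their choice by r over these same libraries favours such a match, so nothing further is read from it. The others were the sialomucins Cd34 (3.86) and Cd164 (0.46), the sialic acid acetyltransferase Casd1 (1.38), the kinase phosphatase Dusp16 (1.82), the disulfide isomerase P4hb (0.85), the cytokine signalling inhibitor Socs2 (1.26), the ketone body enzyme Oxct1 (1.06) and LOC627375 (1.04), each with its log2 difference; Cd164 missed limma's threshold without OVA replicate 1, 2 or 3 (adjusted p of 0.0633, 0.104 and 0.068). The Car4 difference, at 5.36, was larger than that of any of these 10.

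The nearest measured genes beside Car4 on chromosome 11, 3 on each side, were read as a set chosen after the values were seen. Znhit3, a zinc finger protein gene, was 7.12, 7.23 and 7.04 in OVA, against 6.52, 6.1, 6.34 and 6.43 in saline, and rose by 0.78 (SE 0.12, limma adjusted p = 0.00604). The other five, Pigw, Ggnbp2, Usp32, Appbp2 and Ppm1d, differed by 0.24, 0.32, 0.36, 0.21 and 0.02 and did not pass the test, although Ggnbp2 and Usp32 were called without saline replicates 3 and 4 together (adjusted p of 0.00688 and 0.0442). Usp32, which follows Car4 directly, was 10.02, 10.07 and 10.17 in OVA, against 9.3, 9.78, 9.8 and 10.02 in saline.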

How the data were processed

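Expression was measured in 7 libraries of sorted mouse lung eosinophils (3 OVA, 4 saline), each on 1 mouse gene 1.0 ST array, per the file headers. The authors deposited log2 values after RMA, per the submitters' processing notes. RMA removes background and equalises array distributions, so a shift shared by most genes would be lost. The value table held 35557 probe sets. The annotated table has 7 value columns that could be tied to no sample by name and entered no comparison. Each matches 1 value-table column to within 0.005, 2 of 7 in the same place, so group labels rest on the value table's sample names.

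Symbols were updated through RefSeq (GRCm38.p6, names only), and for 825 genes with several probe sets the brightest was kept, giving 18187 genes, with no filter on dim ones. OVA was set against saline with limma 3.58.1 (R 4.3.3; lmFit, eBayes, group as the only term), 2-sided, with Benjamini-Hochberg adjustment over all genes; a gene with an adjusted p under 0.05 was called. The number of arrays limits the precision. In simulated data the test recovered 13 of 67 changes of 0.5, 53 of 67 changes of 1 and 63 of 66 changes of 2. A gene that was not called may therefore hold a difference near 0.5. Genes named are all family genes, up to 6 called genes per pathway list (or the 2 largest differences) and 5 per marker list, the 10 most correlated with Car4, and, outside that rule, the neighbours and individual markers described. One gene of the lists is not reported here and was taken out of them after the counts were known. Members and lists were chosen with earlier results of these data known. Alternatives were another quantile normalization, median centring, array weights, a dim-gene filter, mean probe sets, a replicate block and leaving out libraries.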

Additional observations from a re-analysis of the deposited data

Results flagged for a closer look

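Within the 4 saline libraries, 1 library stood far from the other 3 for 5 of 57 genes examined, where chance flags about 1 gene in 20. That rate does not allow for genes picked from these data, as many of the 57 were. Car5b was 5.1 in saline replicate 4 and 5.03 in each of the other 3, a gap of 0.07 at background. Mrc1 was 6.75 and Dusp16 8.92 in saline replicate 3, both above the rest of the group. That library also held the highest saline level of Car4. Dusp16 was examined for its high r with Car4, which favours this match. Acaca was 6.49 and Appbp2 8.47 in saline replicate 2, both below the rest.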

How the results depend on the processing

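The Car4 difference lay between 5.22 and 5.58 over 15 alternatives, a description, since Car4 was chosen for this difference. Car5b passed limma's threshold with arrays quantile normalised again; the dim-gene filter tested only 3 members, Car5b not among them. The counts over all genes moved more. Higher genes numbered 1649 and lower genes 677 under array weights; these counts were 2191 and 991 without saline replicates 3 and 4 together, and 366 to 1219 and 67 to 266 when single libraries were left out. The count lower was 507 after quantile normalization, 122 after median centring and 404 without saline replicates 1 and 2 together. Without OVA replicate 1, 2 or 3, genes higher were 580, 430 and 366 and genes lower 71, 67 and 86; without saline replicate 1 genes lower were 140. In the pathway lists, 8 higher and 0 lower became 14 and 3 with array weights and 17 and 3 without saline replicates 3 and 4 together; the count lower was 3 after quantile normalization, 2 with the replicate block and 1 without saline replicates 1 and 2 together. Leaving out single libraries gave 5 to 13 higher and 0 to 1 lower. The causes were not tested. Same-numbered OVA and saline libraries deviated together at r of 0.273, -0.137 and 0.241. Some libraries of unlike number had larger values: OVA 1 with saline 2 (0.455) and saline 4 (-0.475), and OVA 3 with saline 4 (0.405). The numbers are therefore not taken to pair samples, and what libraries of unlike number share was not modelled. With the replicate block 1361 genes were higher and 318 lower, and the Car4 difference was 5.22. In that setting Pigq (limma adjusted p = 0.065), Sftpa1 (0.0513) and Sftpc (0.0593) missed the threshold while Aqp11 was called lower (0.0378). Of 12 named pathway genes 7 kept their side of the threshold under all alternatives, and for 0 did a called value change sign. For members at background, signal over background limits what can be seen.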
